A study of Mus musculus with 8 samples.

Results

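The genes of the NF-kB subunits and of the IkB proteins were followed as a family through macrophages exposed to 7 different agents. Ensembl identifiers were matched to 10 mouse symbols, and all 10 were found among the 36806 gene lines of each table. 5 encode the NF-kB subunits (Nfkb1, Nfkb2, Rel, Rela and Relb) and 5 encode IkB proteins (Nfkbia, Nfkbib, Nfkbie, Nfkbiz and Bcl3). The members were chosen by name, with earlier results of these data known.

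The cells were primary macrophages of C57BL/6 mice, obtained by culturing bone marrow in L929-conditioned medium and used on day 7 of differentiation. One culture received no treatment. Each of the others received a single agent for 4 h. These were CpG at 100 nM, MALP2 at 1 ng/ml, the cytokines IL1b, TNFa and IL4 at 10 ng/ml each, TGFb1 at 1 ng/ml and IFNg, the interferon of T and NK cells, at 100 ng/ml. MALP2 is a lipopeptide ligand of Tlr2 with Tlr6, and CpG DNA is a ligand of Tlr9. Polyadenylated RNA was sequenced as 1 library per culture, 8 in all, so no difference below has a replicate check and no p-value was computed. All 7 comparisons share the same untreated library, so an error in it would enter all of them.

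NF-kB proteins are dimers of subunits that share a Rel homology domain. Rela, Rel and Relb carry a transactivation domain, while Nfkb1 and Nfkb2 encode precursors that are processed to smaller DNA-binding subunits and, uncleaved, act like IkB proteins. In resting cells the IkB proteins encoded by Nfkbia, Nfkbib and Nfkbie hold dimers in the cytoplasm. Receptors for TNF, IL1 and microbial ligands activate the IKK kinases, which mark these inhibitors for degradation, and the dimers released then transcribe several genes of their own pathway, among them inhibitors that close the loop. Nfkbiz and Bcl3 encode nuclear IkB proteins that bind promoters together with Nfkb1 or Nfkb2 products and can raise or lower transcription.

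Levels are given in FPKM, fragments scaled to transcript length and library size. The values in parentheses are the authors' lower and upper confidence bounds within a library. The authors scaled each stimulus with the untreated library in a table of its own, so levels across stimuli were joined through the untreated values. Changes were computed within a table as log2 of (stimulated FPKM + 1) over (untreated FPKM + 1), which makes changes at low FPKM look smaller. A gene was counted when it had at least 1 FPKM in either library and a change of at least 2-fold, and all 10 members met the level condition in every comparison.

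Absolute depth is unknown, because the tables hold no counts. Among genes seen with a single read in both libraries, a read carried 2.04 times its untreated FPKM after IFNg and 1.04 to 1.44 times after the other 6 agents. The macrophage identity of the cultures was checked on 12 markers, of which 11 could be used and stood above 1 FPKM in every library, with Csf1r at 1045 to 1543 FPKM. Their sum was 9471 FPKM untreated, 6842 after IL4, 7574 after TGFb1, 9112 to 10551 after IL1b, TNFa, CpG and MALP2, and 11125 after IFNg. Lyz2 was left out, because the untreated, TNFa, TGFb1, IL1b and CpG libraries listed it at 0 with a status that marks too many reads. It had an OK status after IFNg, IL4 and MALP2. The summed level of 8 stromal markers was 45.2 FPKM untreated, 96.1 after IFNg and 45.4 to 52.0 in the other 6, that of 10 neutrophil markers 265 untreated, 154 after IL4, 418 after IFNg and 218 to 354 in the other 5, and that of 9 B cell markers 241 untreated and 40.4 to 74.4 after stimulation. Ighm was at 124 FPKM untreated and 15.1 to 29.7 after stimulation, Blnk at 104 and 13.9 to 45.3, Cd79b at 7.82 and 1.58 to 2.85, and Cd22 at 3.83 and 1.16 to 2.09, while Cd79a and Ms4a1 stayed at or below 0.0944 FPKM in all 8 libraries. The 8 dendritic cell markers summed to 1.82 to 4.41 FPKM, the 8 T and NK cell markers to 5.97 to 22.4 FPKM, and the 6 erythroid markers found to at most 0.289 FPKM. The part of these other cells in the values below was not tested, and in bulk RNA fewer cells of a type cannot be told apart from less RNA per cell.

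Members of the family were mostly higher after CpG, MALP2, IFNg and IL1b, in 5 of 10 cases after TNFa, and not after IL4 or TGFb1. After CpG, 9 of 10 members were at least 2-fold higher, where 9.43% of all 12769 genes tested were. After MALP2, 8 of 10 were higher (9.53% of all genes), and after IFNg also 8 (10.7%). IL1b gave 7 higher members (7.29% of all genes) and TNFa 5 (8.92%). No member was at least 2-fold lower after these 5 agents, where 11.2%, 11.7%, 12.7%, 8.57% and 10.4% of all genes were. IL4 gave 1 higher member, Nfkb1 (9.86% of all genes), and 3 lower ones, Relb, Nfkbiz and Bcl3 (11.9%). With TGFb1 no member passed 2-fold in either direction (7.15% of all genes higher and 9.15% lower). The median log2 change of the 10 members was 2.22 after CpG, 1.85 after MALP2, 1.66 after IFNg, 1.26 after IL1b, 1.10 after TNFa, -0.27 after TGFb1 and -0.62 after IL4. Over all genes tested the median lay between -0.12 and -0.077 in the same comparisons.

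The authors' deposited table, which compares 2 libraries and not 2 conditions, called 8 members after each of IFNg, IL1b, MALP2 and CpG, 6 after TNFa, 5 after IL4 and 2 after TGFb1. Of all genes tested it called 18.9% after IFNg, 16.8% after IL1b, 17.7% after MALP2, 18% after CpG, 17.9% after TNFa, 19.2% after IL4 and 17.5% after TGFb1. Among the changes of at least 2-fold, Rel after CpG was the only one that the authors' deposited table did not call. Nfkbib after TNFa and IL1b, Rela after IL4 and Relb and Bcl3 after TGFb1 were called there without reaching 2-fold.

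**Figure D1:**
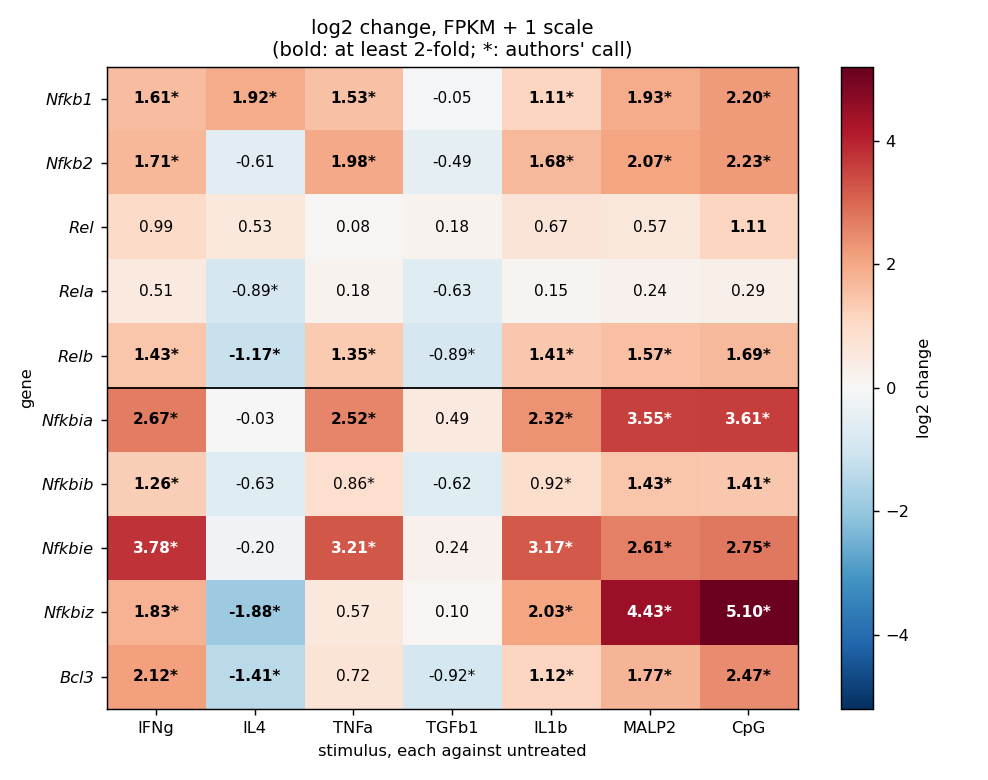
Log2 change of each member (rows) in each comparison with the untreated library (columns), on the FPKM + 1 scale, with red for higher and blue for lower. Bold values are at least 2-fold, a star marks the authors' call, and the highest value is 5.10 (Nfkbiz after CpG) and the lowest -1.88 (Nfkbiz after IL4).

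Promoter sequence was looked up for the members because several of them are textbook targets of NF-kB itself. Windows of 300 bases around annotated starts (250 before, 50 after) were taken from RefSeq on GRCm38.p6, where 7 of the 10 symbols matched, with 9 windows. Nfkb1, Relb and Nfkbiz had no window. Both strands were searched for the NF-kB consensus and for a stricter form that opens with GGG and closes with a run of T and CC, which overlaps the consensus wherever the base after GGG is A or G. The consensus was found in windows of 5 of the 7 genes, Nfkb2, Rel, Nfkbia, Nfkbie and Bcl3, against 9.55% of all 27025 symbols, and in 7 of the 9 windows, against 8.46% of all 32851. Genes with several windows, such as Nfkb2 with 3, have more chances of a match. The stricter form was found for Nfkb2, Rel and Nfkbia, in 1.89% of all symbols and in 1.63% of all windows. Rela and Nfkbib held neither. The sequences that hold a consensus match are shown 5′ to 3′ on the strand of the gene, with the match in capitals and overlapping matches merged. For Nfkbia, Nfkbie and Rel the 250 bases before the start are given, and for Nfkb2 and Bcl3, whose matches lie in or near transcribed sequence, 30 bases around each match.
Nfkbia upstream, chr12:55492648-55492897 (- strand): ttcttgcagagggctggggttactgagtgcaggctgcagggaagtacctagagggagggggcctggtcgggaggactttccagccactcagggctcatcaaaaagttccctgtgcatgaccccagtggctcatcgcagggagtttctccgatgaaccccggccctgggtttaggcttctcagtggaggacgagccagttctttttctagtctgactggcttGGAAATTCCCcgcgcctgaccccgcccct
Nfkbie upstream, chr17:45555450-45555699 (+ strand): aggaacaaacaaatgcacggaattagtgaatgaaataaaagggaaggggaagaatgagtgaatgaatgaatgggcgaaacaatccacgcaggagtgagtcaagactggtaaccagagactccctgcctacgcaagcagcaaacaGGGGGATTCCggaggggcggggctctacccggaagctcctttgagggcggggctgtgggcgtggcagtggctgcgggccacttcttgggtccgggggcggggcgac
Rel upstream, chr11:23770970-23771219 (- strand): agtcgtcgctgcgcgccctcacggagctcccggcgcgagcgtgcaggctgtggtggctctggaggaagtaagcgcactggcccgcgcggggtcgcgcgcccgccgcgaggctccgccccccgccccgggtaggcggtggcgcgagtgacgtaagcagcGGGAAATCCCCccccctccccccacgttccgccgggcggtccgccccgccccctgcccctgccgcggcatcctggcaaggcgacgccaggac
Nfkb2 site a, chr19:46304688-46304717 (+ strand): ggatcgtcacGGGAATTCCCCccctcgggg
Nfkb2 site b, chr19:46304716-46304745 (+ strand): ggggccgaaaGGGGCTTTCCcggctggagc
Nfkb2 site c, chr19:46305695-46305724 (+ strand): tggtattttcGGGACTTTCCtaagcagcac
Nfkb2 site d, chr19:46305449-46305478 (+ strand): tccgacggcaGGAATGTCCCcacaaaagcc
Bcl3 site, chr7:19822734-19822763 (- strand): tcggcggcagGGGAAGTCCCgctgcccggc
The Nfkbia match begins 29 bases before the start, the Nfkbie match 106 and the Rel match 92. In Nfkb2, sites a and b begin 39 and 11 bases before the first annotated start, and site c lies 225 bases before the third start, which is also base 11 downstream of the second. The Bcl3 match begins at base 3 of the transcript. Site d lies 236 bases before the second start of Nfkb2. The matches of Nfkbia and of Nfkb2 site d read on the antisense strand, those of Bcl3, Rel and Nfkb2 site a on both strands, and the others on the sense strand. Among the 5 genes with a match, Nfkb2, Nfkbia and Nfkbie were at least 2-fold higher in 5 comparisons each, Bcl3 in 4 and Rel in 1, while of the 2 without one Nfkbib was higher in 3 and Rela in none. These matches are descriptions of letters and say nothing of binding in these cells.

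**Figure D2:**
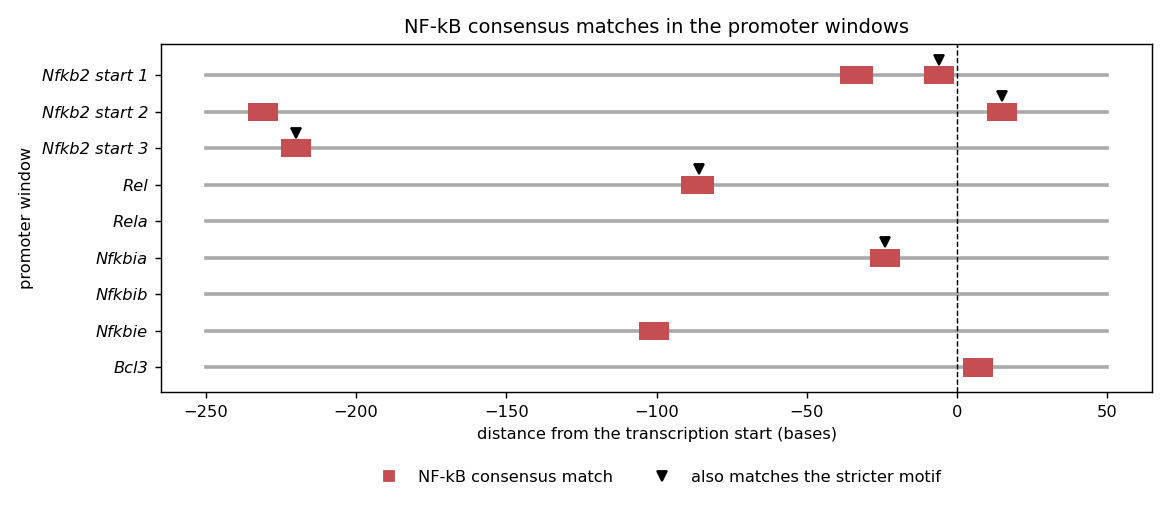
Position of NF-kB consensus matches (red bars) in 9 promoter windows of 7 members, as distance in bases from the annotated transcription start, with a triangle where the stricter form also matches. Matches lie in 7 of the 9 windows, and those of Rela and Nfkbib hold none.

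Among the subunits, Nfkb1 had the highest level in every library. Nfkb1 (ENSMUSG00000028163, mm9 chromosome 3, 135247619 to 135354511) encodes the precursor of the subunit that pairs with Rela in the classical dimer. It was at 70.5 FPKM (56.4 to 84.7) untreated, 68.1 after TGFb1, 154 after IL1b, 206 after TNFa, 217 after IFNg, 270 after IL4, 271 after MALP2 and 328 FPKM (267 to 389) after CpG. The untreated and TGFb1 libraries had overlapping bounds, and the other 6 stood above both without overlap. Nfkb1 was the only member at least 2-fold higher after IL4, with a log2 change of 1.92 (73.4 to 281 FPKM in that table), next to 1.93 after MALP2 and 2.20 after CpG. Set directly against the TGFb1 library, the IL4 library had a log2 difference of 1.97 in Nfkb1, with bounds that did not overlap.

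Nfkb2 and Relb encode the partners of the alternative NF-kB dimer. Nfkb2 (ENSMUSG00000025225, mm9 chromosome 19, 46379227 to 46401646) was at 30.1 FPKM (14.5 to 45.8) untreated, 98.6 after IL1b, 101 after IFNg, 122 after TNFa, 130 after MALP2 and 145 FPKM (61.3 to 229) after CpG, with 21.2 after TGFb1 and 19.4 FPKM after IL4. Its log2 changes were 1.68 to 2.23 in the first 5 and -0.49 and -0.61 in the last 2. The bounds of the TNFa, IL1b, MALP2 and CpG libraries lay above the untreated ones, whereas those of IFNg (41.1 to 160) reached below the untreated upper bound. Its deposited locus also holds the gene Psd, which ran from 0.227 (IL4) to 2.74 FPKM (CpG), and strand was not given, so reads where the 2 genes overlap cannot be separated.

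Relb (ENSMUSG00000002983, mm9 chromosome 7, 20191566 to 20214787) had an untreated level of 16.9 FPKM (11.7 to 22.1). It was at 44.5 after TNFa, 46.3 after IL1b, 47.3 after IFNg, 52.2 after MALP2 and 56.5 FPKM (36.9 to 76.1) after CpG. It was at 8.64 (5.49 to 11.8) after TGFb1 and 6.93 FPKM (3.73 to 10.1) after IL4. The bounds of the high 5 lay above those of the untreated library, and within their own tables those of IL4 and TGFb1 lay below them. The log2 change was -1.17 after IL4 and -0.89 after TGFb1, the second short of 2-fold, and the IL4 and TGFb1 bounds overlapped each other.

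Rela and Rel, the main transactivating subunits of macrophages, varied least. Rela (ENSMUSG00000024927, mm9 chromosome 19, 5637483 to 5648130) had 60.7 FPKM (40.1 to 81.4) untreated and 67.3 to 87.2 FPKM after IL1b, TNFa, MALP2, CpG and IFNg, with log2 changes of 0.15 to 0.51. It was at 38.9 FPKM after TGFb1 and 32.4 FPKM (21.5 to 43.3) after IL4, where the log2 change was -0.89 and the authors' deposited table called it. In the order of its levels no neighbouring libraries had separate bounds. Rel (ENSMUSG00000020275, mm9 chromosome 11, 23641514 to 23670970) was the least abundant subunit in every library but IL4, at 4.78 FPKM (1.87 to 7.68) untreated, 5.11 after TNFa, 5.56 after TGFb1, 7.35 after IL4, 7.61 after MALP2, 8.18 after IL1b, 10.5 after IFNg and 11.5 FPKM (4.57 to 18.4) after CpG. All 7 stimulated values were above the untreated one, but none of their bounds cleared it. Its log2 change was 1.11 after CpG, just past 2-fold, and 0.99 after IFNg, just short of it.

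**Figure D3:**
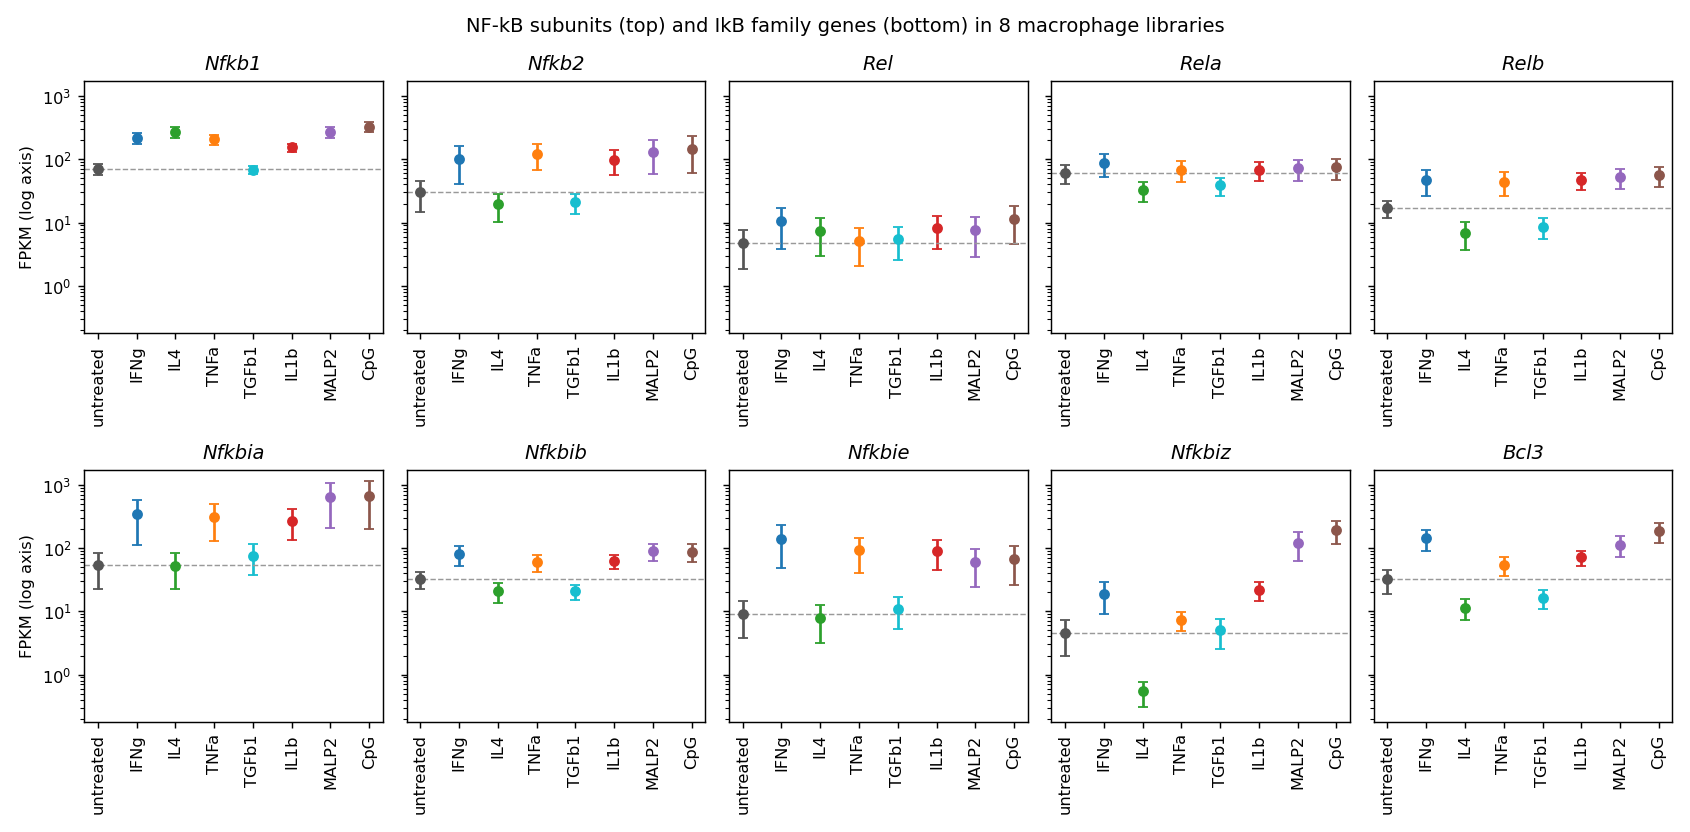
Level of each member in the 8 libraries in FPKM on a log axis, 1 panel per gene, points with the authors' confidence bounds and a dashed line at the untreated level. Nfkbiz spans 0.542 (IL4) to 192 FPKM (CpG), whereas Rela stays between 32.4 and 87.2 FPKM.

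The cytoplasmic inhibitors were led by Nfkbia, the gene of IkB alpha and the fast feedback inhibitor of the pathway. Nfkbia (ENSMUSG00000021025, mm9 chromosome 12, 56590398 to 56593634), the promoter of which is shown above, was at 53.5 FPKM (22.6 to 84.4) untreated and 52.6 FPKM (22.2 to 82.9) after IL4. It was at 75.6 after TGFb1, 271 after IL1b, 312 after TNFa, 345 after IFNg, 637 after MALP2 and 667 FPKM (197 to 1137) after CpG. The untreated, IL4 and TGFb1 libraries overlapped in their bounds. The other 5 lay above the untreated and IL4 bounds, but the IFNg bounds (111 to 580) overlapped those of TGFb1 (36.8 to 114). The log2 changes of 3.55 after MALP2 and 3.61 after CpG compare with 2.32 after IL1b, 2.52 after TNFa and 2.67 after IFNg. MALP2 was 2.04-fold above TNFa in Nfkbia, with bounds that overlapped.

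Nfkbie, the gene of IkB epsilon, an inhibitor that acts later than IkB alpha, had another order of agents. Nfkbie (ENSMUSG00000023947, mm9 chromosome 17, 45692665 to 45700118) stood at 9.14 FPKM (3.72 to 14.6) untreated, 7.84 after IL4 and 10.9 after TGFb1. It reached 61.0 after MALP2, 67.2 after CpG, 90.2 after IL1b, 92.9 after TNFa and 139 FPKM (47.5 to 230) after IFNg. The log2 changes were 2.61, 2.75, 3.17, 3.21 and 3.78 in that order, so IFNg, TNFa and IL1b stood above both Toll-like receptor ligands, the reverse of Nfkbia, although the bounds of these 5 libraries overlapped throughout. Nfkbie over Nfkbib was 0.282 untreated, 1.45 to 1.75 after IL1b, TNFa and IFNg, and 0.685 and 0.768 after MALP2 and CpG.

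Nfkbib, the gene of IkB beta, was the steadiest inhibitor. Nfkbib (ENSMUSG00000030595, mm9 chromosome 7, 29543270 to 29573684) was at 32.4 FPKM (22.8 to 41.96) untreated, 59.5 after TNFa, 62.0 after IL1b, 79.3 after IFNg, 87.5 after CpG and 89.1 FPKM (61.8 to 116) after MALP2. It was at 20.8 after TGFb1 and 20.6 FPKM after IL4. The log2 changes were 1.26 to 1.43 after IFNg, CpG and MALP2, 0.86 and 0.92 after TNFa and IL1b, and -0.62 and -0.63 after TGFb1 and IL4. Its locus is shared with Sirt2, which had 171 FPKM in the untreated library and between 93.3 and 126 in the stimulated ones. Sirt2 was thus lower in every stimulated library, both where Nfkbib was higher and where it was lower. Strand was not given, so reads where the genes overlap cannot be separated.

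The nuclear IkB gene Nfkbiz had the widest range of the family. Nfkbiz (ENSMUSG00000035356, mm9 chromosome 16, 55811488 to 55839012) encodes IkB zeta, a cofactor of secondary response genes that is known to follow Toll-like receptor and IL1 signals. It was at 4.59 FPKM (1.95 to 7.24) untreated and 0.542 FPKM (0.313 to 0.772) after IL4. It was at 5.01 after TGFb1, 7.28 after TNFa, 19.0 after IFNg, 21.9 after IL1b, 120 (62.1 to 178) after MALP2 and 192 FPKM (114 to 270) after CpG. Its levels fell into 3 sets separated by their bounds, with CpG and MALP2 on top, IL4 at the bottom and the other 5 in between. Among these 5, the IL1b bounds (14.6 to 29.1) lay above those of the untreated, TGFb1 and TNFa libraries. The IFNg bounds (9.08 to 28.9) lay above those of the untreated and TGFb1 libraries and overlapped those of TNFa. The fold change was 34.4 after CpG, the 43rd highest of 12769 genes tested, and 21.5 after MALP2, the 48th highest of 12722. After IL4 it was 3.69-fold lower, the 314th lowest of 12908 genes, and with a pseudocount of 0.1 in place of 1 this log2 change of -1.88 became -2.88.

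Nfkbiz was also where the inflammatory agents parted. IL1b against TNFa gave a log2 difference of 1.46 with separate bounds, and MALP2 against TNFa gave 3.87, again with separate bounds. Of the 10 members it was the only one at least 2-fold apart between IL1b and TNFa, where 1.25% of all genes were higher after IL1b and 1.69% lower. Between MALP2 and TNFa, Nfkbiz, Nfkbia and Bcl3 were at least 2-fold higher after MALP2 and no member was lower (2.71% and 2.02% of all genes), and the bounds of Nfkbia and Bcl3 overlapped. No member was 2-fold apart between CpG and MALP2 (1.18% and 0.723% of all genes), where the log2 differences ran from -0.025 for Nfkbib to 0.67 for Nfkbiz and 0.70 for Bcl3 and all bounds overlapped. IFNg was at least 2-fold above TNFa in Nfkbiz, with overlapping bounds, and in Bcl3 (7.48% of all genes higher and 4.82% lower). IL4 was above TGFb1 in Nfkb1 and below it in Nfkbiz, by 1.97 and -1.96 on the log2 scale, with separate bounds for both (4.44% of all genes higher and 4.41% lower). These pairs were chosen after the values were seen.

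Bcl3 encodes a nuclear IkB protein that binds homodimers of the Nfkb1 or Nfkb2 products. Bcl3 (ENSMUSG00000053175, mm9 chromosome 7, 20393811 to 20408119) was at 32.0 FPKM (19.0 to 45.1) untreated, 53.4 after TNFa, 70.9 after IL1b, 112 after MALP2, 143 after IFNg and 182 FPKM (121 to 244) after CpG. It was at 16.5 after TGFb1 and 11.5 FPKM (7.16 to 15.8) after IL4. The log2 change was 2.47 after CpG, 2.12 after IFNg, 1.77 after MALP2, 1.12 after IL1b and 0.72 after TNFa, and it was -0.92 after TGFb1 and -1.41 after IL4. The IL4 bounds lay wholly below the untreated ones and those of TGFb1 overlapped them. IFNg was 2.64-fold above TNFa with separate bounds. The summed macrophage, stromal, neutrophil, dendritic cell, and T and NK cell markers were all highest in the same IFNg library. Single genes made up much of the rise over untreated in some of these sums. Fcgr1 went from 319 to 1233 FPKM after IFNg, Clec9a from 0.138 to 1.92 and Lck from 0.906 to 11.2, while Cd3e was at 0.0240 FPKM. The part of these markers was not tested. The antisense gene Gm16174 within its locus was at 0.784 to 3.71 FPKM over the 8 libraries.

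The make-up of the family shifted with the agent. The 5 subunits summed to 183 FPKM untreated, 142 after TGFb1, 336 after IL4, 374 to 463 after IL1b, TNFa and IFNg, 532 after MALP2 and 616 FPKM after CpG. Nfkb1 made up 38.5% of that sum untreated and 80.3% after IL4, against 41.1% to 53.3% in the other 6. Rela made up 33.2% untreated, 27.4% after TGFb1, 9.64% after IL4 and 12.1% to 18.8% in the other 5. The ratio of Nfkb1 to Rela was 1.16 untreated and 8.34 after IL4, with 1.75 to 4.40 in the other 6. The 5 IkB genes summed to 132 FPKM untreated, 93.0 after IL4, 129 after TGFb1, 516 to 725 after IL1b, TNFa and IFNg, 1019 after MALP2 and 1196 FPKM after CpG. Per unit of subunit transcript this was 0.719 untreated, 0.277 after IL4, 0.905 after TGFb1, 1.18 to 1.57 after TNFa, IL1b and IFNg, and 1.92 and 1.94 after MALP2 and CpG. The ratio of Nfkbia to Rela was 0.881 untreated, 1.62 and 1.94 after IL4 and TGFb1, 3.96 to 4.53 after IFNg, IL1b and TNFa, and 8.89 and 8.94 after MALP2 and CpG. Nfkbiz over Bcl3 was 0.143 untreated, 0.0473 after IL4 and 1.05 to 1.07 after CpG and MALP2. In these 2 libraries Nfkbiz passed Bcl3, but the bounds of the 2 genes overlapped in both.

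**Figure D4:**
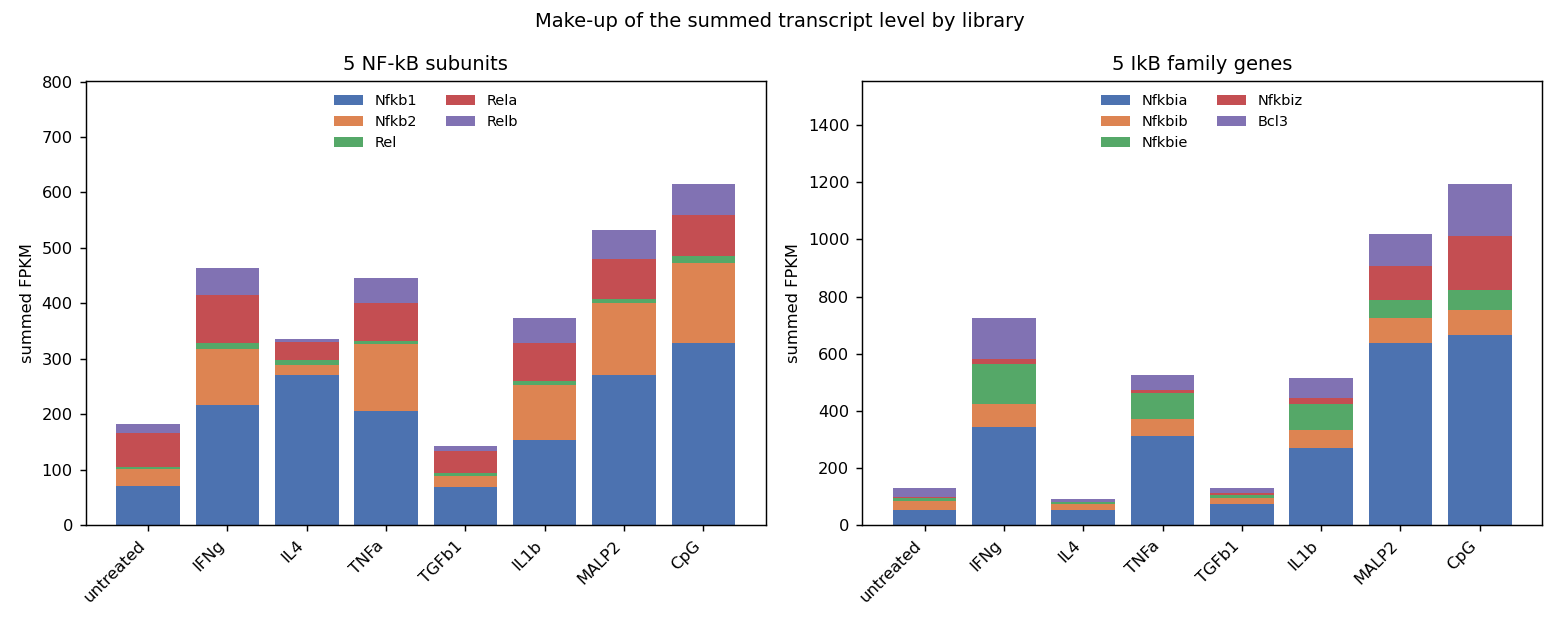
Summed FPKM of the 5 NF-kB subunits (left) and the 5 IkB genes (right) in each library, stacked by gene. Nfkb1 makes up 80.3% of the subunit sum after IL4, and the IkB sum goes from 93.0 FPKM (IL4) to 1196 FPKM (CpG).

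The kinase and degradation genes that act above the family mostly stayed within 2-fold, as did most of all genes tested. A larger share of the receptor adaptor genes passed it after MALP2, CpG and IFNg. Among the IKK subunits, Chuk had log2 changes of 0.20 to 1.00, highest after IL4 (9.17 to 19.3 FPKM), Ikbkb -0.31 to 0.70 and the scaffold gene Ikbkg 0.13 to 0.73, so none of these IKK genes passed 2-fold. The authors' deposited table nevertheless called Chuk after IL4, TNFa, TGFb1 and IL1b, and Ikbkg after TNFa, MALP2 and CpG. Of 15 IKK and upstream kinase genes at most 2 were higher and at most 3 lower in any comparison, with medians of -0.19 to 0.28. Of all genes 7.15% to 10.7% were higher and 8.57% to 12.7% lower. Both maxima fell after TNFa, with Ikbke and Tank higher and Map3k1, Map3k3 and Map3k8 lower (8.92% and 10.4% of all genes). Those with the largest changes were Map3k1 (30.4 to 5.70 FPKM after IL1b), the IKK-related kinase Ikbke (60.9 to 245 FPKM after MALP2), Map3k8, a kinase held by the Nfkb1 precursor (8.73 to 29.1 FPKM after CpG), and Tank (11.8 to 31.2 FPKM after IFNg). Map3k1 was at least 2-fold lower after all 7 agents, with log2 changes of -2.23 to -1.48. Ikbke was lower after IL4 (-1.22) and TGFb1 (-1.32), and Map3k8 after TNFa (-1.28) and TGFb1 (-1.59). Of 8 genes of the ubiquitin machinery that degrades IkB proteins none was 2-fold higher with any agent (7.15% to 10.7% of all genes). Only Cops2 was lower, after TNFa, IL1b and CpG (10.4%, 8.57% and 11.2% of all genes), from 24.1 to 6.76 FPKM after IL1b. Of 21 receptor adaptor genes 8 were higher after MALP2 and after CpG (9.53% and 9.43% of all genes) and 7 after IFNg (10.7%). Higher after TNFa were 5 (8.92%), after IL1b 4 (7.29%), after IL4 2 (9.86%) and after TGFb1 1 (7.15%). Lower were 5 after IL4 (11.9% of all genes), 2 after IFNg (12.7%), 1 after TGFb1 (9.15%), 1 after MALP2 (11.7%) and 0 after the other 3 (8.57% to 11.2%). The largest changes were those of Traf1 (9.80 to 141 FPKM after CpG), the kinase gene Ripk2 (6.02 to 42.7 FPKM after IL4) and the inhibitory kinase gene Irak3 (16.7 to 89.2 FPKM after MALP2), and Ticam2, which was lower after IL4 (22.2 to 5.40 FPKM). Traf1 was also lower after IL4 and TGFb1, with log2 changes of -2.20 and -1.49, and Irak3 after IL4 (-1.78). The other genes of the list that were lower after IL4, named after their values were seen, were Irak2 (-1.59) and Birc3 (-1.44).

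Negative feedback genes outside the IkB family included large changes. Of 14 such genes 5 were higher after each of IFNg (10.7% of all genes), IL1b (7.29%), MALP2 (9.53%) and CpG (9.43%). IL4 gave 4 (9.86%), TNFa 3 of 13 measured (8.92%) and TGFb1 1 (7.15%), the last near the share of all genes. On the log2 scale, Tnip1 (-1.34) and Trim30a (-1.35) were lower after IL4 and Otulin after IFNg (-1.58) and TNFa (-1.11). Of all genes 11.9%, 12.7% and 10.4% were lower after IL4, IFNg and TNFa. None of the list was lower after the other agents (8.57% to 11.7% of all genes). Trim30a and Otulin were named after their values were seen, and the authors' deposited table called only Tnip1 among these changes. The deubiquitinase gene Tnfaip3 was at 6.53 FPKM untreated and 229 FPKM after CpG, and it was at least 2-fold higher after all 7 agents, with log2 changes of 1.02 after TGFb1 and 1.31 after IL4. Tnip3 (3.98 to 102 FPKM), the RNase gene Zc3h12a (11.6 to 176 FPKM) and Tnip1 (67.5 to 410 FPKM) were likewise highest after CpG, leaving out Tnip1 after TNFa, where its status was not OK. Nfkbid, a nuclear IkB gene outside the 10 members, had log2 changes of 1.49 to 2.05 after IFNg, TNFa, IL1b, MALP2 and CpG, 0.91 after TGFb1 and 0.82 after IL4, so unlike Nfkbiz and Bcl3 it was not below the untreated level after IL4. Inflammatory target genes were counted with at least 1 FPKM in either library. Of these, 29 of 33 were higher after MALP2 (9.53% of all genes) and 29 of 32 after CpG (9.43%). After IFNg 25 of 30 were higher (10.7%), after TNFa 21 of 30 (8.92%) and after IL1b 21 of 29 (7.29%). IL4 gave 5 of 25 (9.86%) and TGFb1 4 of 25 (7.15%). A gene below 1 FPKM untreated entered only where the agent raised it, as Csf3 after MALP2 (0.0118 to 19.1 FPKM). The counts and medians of these genes therefore lean to higher values and cover partly different genes between agents. Lower were 8 of 25 after IL4 (11.9% of all genes) and 9 of 25 after TGFb1 (9.15%). After IFNg, TNFa and MALP2 1 each was lower (12.7%, 10.4% and 11.7%), and after IL1b and CpG 0 (8.57% and 11.2%). Named after their values were seen, those with the lowest log2 changes were Tnfaip2 (-3.05), Ccl5 (-1.74) and Ccl3 (-1.60) after IL4 and Ccl3 (-3.77), Ccl4 (-3.06) and Tnfaip2 (-2.83) after TGFb1. The median log2 change of the measured target genes was 4.24 after CpG and 4.15 after MALP2, 1.92 to 2.48 after IL1b, IFNg and TNFa, -0.12 after TGFb1 and -0.38 after IL4. The highest were Il1b (3.86 to 3075 FPKM) and Saa3 (9.97 to 5353 FPKM) after CpG, Cxcl10 after IFNg (25.5 to 7163 FPKM) and Gpr84 after MALP2 (3.87 to 921 FPKM).

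The genes most like each member were sought over the 7 log2 changes among 8362 others with at least 10 FPKM in some library, by root mean square difference. Nfkb1 was closest to N4bp1 (0.23), Plek (0.27) and Gpc1 (0.33), and no other member came nearer to it than Nfkb2 at 1.01. Relb was closest to Rnd3 (0.27), Birc3 (0.29) and Ikbke (0.36), and Nfkbib to Rnd3 (0.24), Prdm1 (0.27) and Acot7 (0.28), with 0.37 between Relb and Nfkbib. For Nfkbia the nearest genes were Nlrp3 (0.41), Itgal (0.50) and Ass1 (0.52), and for Nfkbie Icam1 (0.45), Nlrp3 (0.56) and Jdp2 (0.64). Bcl3 had Ikbke (0.47), Arhgef3 (0.47) and Relb (0.49), Nfkb2 had Txnrd1 (0.35), Zswim4 (0.43) and Foxp4 (0.44), and Rel had Ube2j2 (0.23) and Ppp1r18 (0.24). Nfkbiz had the most distant neighbours, Lcn2 (0.88), Rnd1 (1.03) and Fpr2 (1.13).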

How the data were processed

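Poly(A) RNA-seq of 8 libraries was deposited as 14 tables of 36806 gene lines, 2 per stimulus. Per the submitters' processing notes, TopHat 1.3.1, Cufflinks 1.2.1 and Cuffdiff 1.2.1 were used with mm9. The run options and strand handling were not given in the sources used here. Per the file headers, the authors deposited an FPKM value with a lower and an upper confidence bound for each library, of unstated level. The q-value and call come from the authors' deposited comparison tables. Between 336 and 388 lines per stimulus lacked an OK status and were left out.

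Symbols came from GENCODE release 21 for mouse, and loci are mm9, counted from 1. The untreated values of the 7 tables differ by 1 factor per table, by which levels were joined. A pseudocount of 1 FPKM, a floor of 1 FPKM and a 2-fold threshold were used. The members, lists and named genes (the 4 largest changes of each list at 5 FPKM or more, and the 3 genes nearest to each member counted) were chosen with earlier results of these data known. Some genes that this rule names are not reported here. The counting rule was tested on simulated data. Other settings tried were 0.1 FPKM as pseudocount, 5 FPKM or nothing as floor, changes centred on the median, the size rule with the authors' call, 1.5-fold, and, added after the data were seen, the other 6 stimulated libraries as reference. Python 3.11.15, numpy 2.4.6, pandas 2.3.3 and matplotlib 3.10.9 were used.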

Additional observations from a re-analysis of the deposited data

Results flagged for a closer look

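Relb, Nfkbiz and Bcl3 were at least 2-fold lower after IL4 and at least 2-fold higher after other agents. Their changes thus ran in opposite directions with different agents, each set against the untreated library. The difference was not tested, because each group holds 1 library. Relb had a log2 change of -1.17 after IL4 and 1.69 after CpG. Nfkbiz had -1.88 after IL4 and 5.10 after CpG. Bcl3 had -1.41 after IL4 and 2.47 after CpG. The authors' deposited table called each in both comparisons, and all 6 pairs of bounds were separate from the untreated ones. The summed macrophage markers (6842 FPKM) and the summed neutrophil markers (154 FPKM) were both lowest in the same IL4 library. The part of either in these values was not tested.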

How the results depend on the processing

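No paired analysis was possible because each group holds 1 library. The counts of higher and lower members stayed within 1.5 times of those reported under a pseudocount of 0.1, a floor of 5 FPKM or none, centring on the median gene and the authors' call, and under centring all 70 changes of the members stayed close to the reported ones. At 1.5-fold, 6 members in place of 3 were lower after IL4 and 4 in place of 0 after TGFb1, as a lower threshold passes more genes (24.5% and 21% of all genes). Against the median of the other 6 stimulated libraries, which asks what sets 1 agent apart, the higher members were 2 after IFNg, 2 after MALP2, 3 after CpG and 0 after TNFa, IL1b and IL4. On that reference 8 were lower after IL4, 8 after TGFb1 and 1 after TNFa. Of all genes, 1.19% to 7.5% were higher and 0.639% to 5.19% lower over the 7 agents. 10 changes called against the untreated library then had the other sign: Nfkb1 -0.13 and Nfkb2 -0.13 after IFNg, Nfkb1 -0.25 and Relb -0.072 after TNFa, Nfkb1 -0.66, Nfkb2 -0.17, Nfkbia -0.28 and Bcl3 -0.22 after IL1b, and Nfkbie -0.36 after MALP2 and -0.17 after CpG. The new reference contains agents with high values, and no other cause was tested. Precision is limited by the authors' bounds, such as 197 to 1137 FPKM for Nfkbia after CpG.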

Other observations

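Relb and Bcl3 lie on the same chromosome, 179023 bases apart in mm9, with 10 other gene identifiers between them. Of 6 of these with enough FPKM, 0 were at least 2-fold higher and 0 lower after IFNg, where Relb and Bcl3 were both higher. After each of IL1b, MALP2 and CpG, where Relb and Bcl3 were likewise both higher, 1 of the 6 was higher and 0 were lower, and TNFa gave the same counts. After IL4, where Relb and Bcl3 were both lower, 2 of the 6 were lower and 1 higher. With TGFb1, which gave Relb -0.89 and Bcl3 -0.92 on the log2 scale, 0 were higher and 0 lower. The median log2 change of the 6 was 0.19 after IFNg, 0.070 after MALP2, 0.030 after CpG, -0.14 after TNFa, -0.28 after IL1b, -0.43 after IL4 and -0.60 after TGFb1.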
